A study of Mus musculus with 8 samples.

Results

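The V and J segments of the T cell receptor beta chain (TRB) and the length of its CDR3 were described in CD8 T cells of 4 receptor libraries. The segments were read from the productive TRB contig with the most UMIs (unique molecular identifiers, which count captured mRNA molecules) in each cell barcode. Such a contig was found in 17104 of 17559 barcodes, and it named 22 TRBV and 12 TRBJ labels, 34 in all, beside the 31053 genes of the matching RNA matrices. The 13904 barcodes that also held a productive alpha chain (TRA) formed 11091 clones, a clone being all barcodes of a library with the same V gene, CDR3 nucleotides and J gene in both chains. Each clone was counted once unless cells are named.

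The libraries came from the livers and spleens of EomesTG mice, which are homozygous for a transgene that expresses the transcription factor Eomes in T cells (EomesTg/Tg), and of WT mice, both on the C57BL/6 background. The question of the study was how Eomes acts on the transcriptional programme and on the clonal expansion of CD8 T cells. CD8 T cells were sorted after cells of 3 mice of a strain had been pooled, and a receptor and an RNA library were made for each genotype and tissue with 10x Genomics 5' v1 chemistry. The promoter of the transgene and the age and sex of the mice are not given in the sources used here. The liver and the spleen library of a genotype share their 3 mice, and a clone cannot be assigned to a mouse. With 1 library per group there is no test between groups, and all intervals given are 95% intervals that cover counting error only.

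Each beta chain gene is assembled in the thymus by joining a D segment to a J segment and then a V segment to that DJ joint. Bases are trimmed from the segment ends and bases without a template are added at the joints. Most joints, though not all, are therefore particular to a cell and its descendants. The joint encodes most of the CDR3, the loop that reads the presented peptide, which is counted here from the conserved cysteine of the V segment to the conserved phenylalanine of the J segment. In the mouse the locus holds D1, a J1 cluster and the constant gene Trbc1, followed by D2, a J2 cluster and Trbc2, so D1 can join either cluster and D2 joins the J2 cluster by deletion.

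On chromosome 6 of GRCm38, the build called mm10 by the submitters, the GENCODE M21 annotation places Trbd1 at 41533201-41533212, the J1 cluster from the start of Trbj1-1 at 41533864, Trbc1 at 41538218-41539881, Trbd2 at 41542163-41542176 and the J2 cluster between 41542754 and 41543856, all on the plus strand. The D segments are shown because their G-rich letters recur in the CDR3s below, and 4 J segment heads, up to the last codon of the CDR3, because they span the shortest and the longest of the 12.
D1: gggacagggggc
D2: gggactgggggggc
TRBJ2-7: ctcctatgaacagtacttc
TRBJ1-1: caaacacagaagtcttcttt
TRBJ2-3: agtgcagaaacgctgtatttt
TRBJ1-6: ttcctataattcgcccctctacttt

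The CDR3 sequences of the largest clones follow, since they set how segment use by cells departs from segment use by clones. Capitals mark the bases between the stretch that matches the germline V segment and the stretch that matches the germline J segment.
EomesTG liver, TRBV3 TRBJ1-5: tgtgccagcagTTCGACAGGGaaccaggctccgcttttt
EomesTG liver, TRBV15 TRBJ2-7: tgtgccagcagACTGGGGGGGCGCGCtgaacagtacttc
EomesTG liver and spleen, TRBV12-1 TRBJ2-5: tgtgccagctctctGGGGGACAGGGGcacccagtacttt
EomesTG liver, a further TRBV15 TRBJ2-7: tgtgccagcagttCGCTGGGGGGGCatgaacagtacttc
WT liver and spleen, TRBV29 TRBJ1-6: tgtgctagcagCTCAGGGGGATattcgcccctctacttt
WT liver, TRBV10 TRBJ2-5: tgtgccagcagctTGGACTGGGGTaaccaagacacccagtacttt
EomesTG spleen, TRBV12-2+TRBV13-2 TRBJ2-5: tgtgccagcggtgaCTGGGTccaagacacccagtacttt
All except the TRBV10 TRBJ2-5 receptor encode a CDR3 of 13 residues. The match to D1 runs through the TRBV3, TRBV12-1 and TRBV29 joints, and a match to D2 through both TRBV15 joints and the TRBV10 joint.

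A productive TRB contig was found in 3884 barcodes of EomesTG liver, 2852 of WT liver, 5307 of EomesTG spleen and 5061 of WT spleen, with medians of 12, 10, 9 and 10 TRB UMIs in that order. They gave 1028 clones in EomesTG liver, 2028 in WT liver, 4100 in EomesTG spleen and 3935 in WT spleen, of which 141, 85, 54 and 53 in that order had 2 or more cells and are called expanded. Between 98.9 and 99.6% of these barcodes were also in the RNA matrix, with median totals between 4044 and 5608 UMIs. The 7 CD8 T cell markers were detected in every library, at a sum of 7731 CPM (UMI counts per 1000000 UMIs of these barcodes) in EomesTG liver and between 5100 and 5255 CPM in the other 3. Cd4 was at 0 in both livers, at 0.0759 CPM in EomesTG spleen and at 0.0366 CPM in WT spleen. The 3 markers of CD4 T cells, Cd4 among them, summed to 3.14 CPM in EomesTG liver and 8.33 CPM in WT liver. In EomesTG spleen they summed to 0.9104 CPM and in WT spleen to 5.23 CPM. In that order of libraries, markers of B cells summed to 5.89, 26.4, 15.7 and 29.7 CPM. Those of myeloid cells summed to 7.81, 13.03, 3.26 and 4.099 CPM, and those of hepatocytes to 0.6603, 6.46, 0 and 0.1098 CPM. Markers of natural killer cells summed to 252 CPM in EomesTG liver, 102 CPM in WT liver, 7.70 CPM in EomesTG spleen and 19.7 CPM in WT spleen, with 3 of 3 detected except in EomesTG spleen, where Ncr1 was at 0. The 4 markers of gamma-delta T cells, all detected, summed to 221 CPM in EomesTG liver, 40.7 CPM in WT liver, 10.9 CPM in EomesTG spleen and 9.41 CPM in WT spleen, while Trdc, which defines that lineage, had between 2.04 CPM in EomesTG liver and 4.25 CPM in EomesTG spleen. The part of the marker sets other than that of CD8 T cells in the results below was not tested. Pairs of libraries shared 24 to 44 barcodes, and 0 of these carried the same TRB.

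When each clone was counted once, the use of the 12 TRBJ segments was alike in the 4 libraries. TRBJ2-7 led everywhere: it was used by 24.5% of clones in EomesTG liver, 22.1% in WT liver, 21.7% in EomesTG spleen and 22.4% in WT spleen. At the low end stood TRBJ1-5, with 3.21% in EomesTG liver, 3.50% in WT liver, 2.93% in EomesTG spleen and 3.20% in WT spleen, and TRBJ1-6, with 2.92, 3.01, 3.32 and 3.51% in the same order of libraries. The most used segment therefore had 8.40 times the clones of the least used in EomesTG liver, 7.36 times in WT liver, 7.41 times in EomesTG spleen and 7.00 times in WT spleen.

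Behind TRBJ2-7 came TRBJ2-1, TRBJ2-5 and TRBJ1-1, whose order changed from library to library. TRBJ2-1 was used by 11.4% of clones in EomesTG liver, 14.6% in WT liver, 12.95% in EomesTG spleen and 12.6% in WT spleen. TRBJ2-5 was used by 12.5% in EomesTG liver, 10.6% in WT liver, 11.4% in EomesTG spleen and 11.3% in WT spleen. TRBJ1-1 was used by 11.7% in EomesTG liver, 9.47% in WT liver, 12.1% in EomesTG spleen and 10.7% in WT spleen. In EomesTG liver the exact binomial intervals of these 3 segments overlapped, TRBJ1-1 lying between 9.77 and 13.8% and TRBJ2-5 between 10.6 and 14.7%. The other 6 segments, TRBJ1-2, TRBJ1-3, TRBJ1-4, TRBJ2-2, TRBJ2-3 and TRBJ2-4, each took between 4.17% (TRBJ1-3 in WT spleen) and 8.09% (TRBJ2-4 in WT liver).

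A segment was called higher or lower between 2 libraries where the ratio of its clone shares was at least 1.5, or the inverse of that, with an exact conditional binomial interval on that side of 1 and at least 10 clones over both sides. None of the 12 TRBJ segments was called in any of the 4 comparisons, a share of 0.0% called. The ratios of EomesTG over WT ran between 0.746 for TRBJ2-4 and 1.23 for TRBJ1-1 in liver, and between 0.862 for TRBJ2-3 and 1.21 for TRBJ1-3 in spleen. Liver over spleen, they ran between 0.838 for TRBJ2-4 and 1.13 for TRBJ2-7 in EomesTG mice, and between 0.858 for TRBJ1-6 and 1.16 for TRBJ1-3 in WT mice. The interval lay on one side of 1 for 2 segments below the fold: TRBJ2-1 in EomesTG over WT liver, at 0.780 (0.624 to 0.969), and TRBJ1-4 in EomesTG over WT spleen, at 1.204 (1.01 to 1.44).

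By cells the picture in liver was another. TRBJ1-5 held 16.2% of cells in EomesTG liver, 529 cells of which 492 belonged to 1 clone, against 3.78% in WT liver. TRBJ2-7 held 31.3% of cells in EomesTG liver against 20.3% in WT liver, and TRBJ1-6 held 1.66% in EomesTG liver against 7.60% in WT liver, where 117 of its 183 cells were 1 clone. In the spleens the shares of cells stayed close to those of clones, with TRBJ2-7 at 21.7% of cells in EomesTG spleen and 22.1% in WT spleen. With each cell counted, 7 of 12 TRBJ segments passed the fold in EomesTG over WT liver and 0 of 12 in EomesTG over WT spleen, where cells of a clone are not independent draws.

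**Figure D1:**
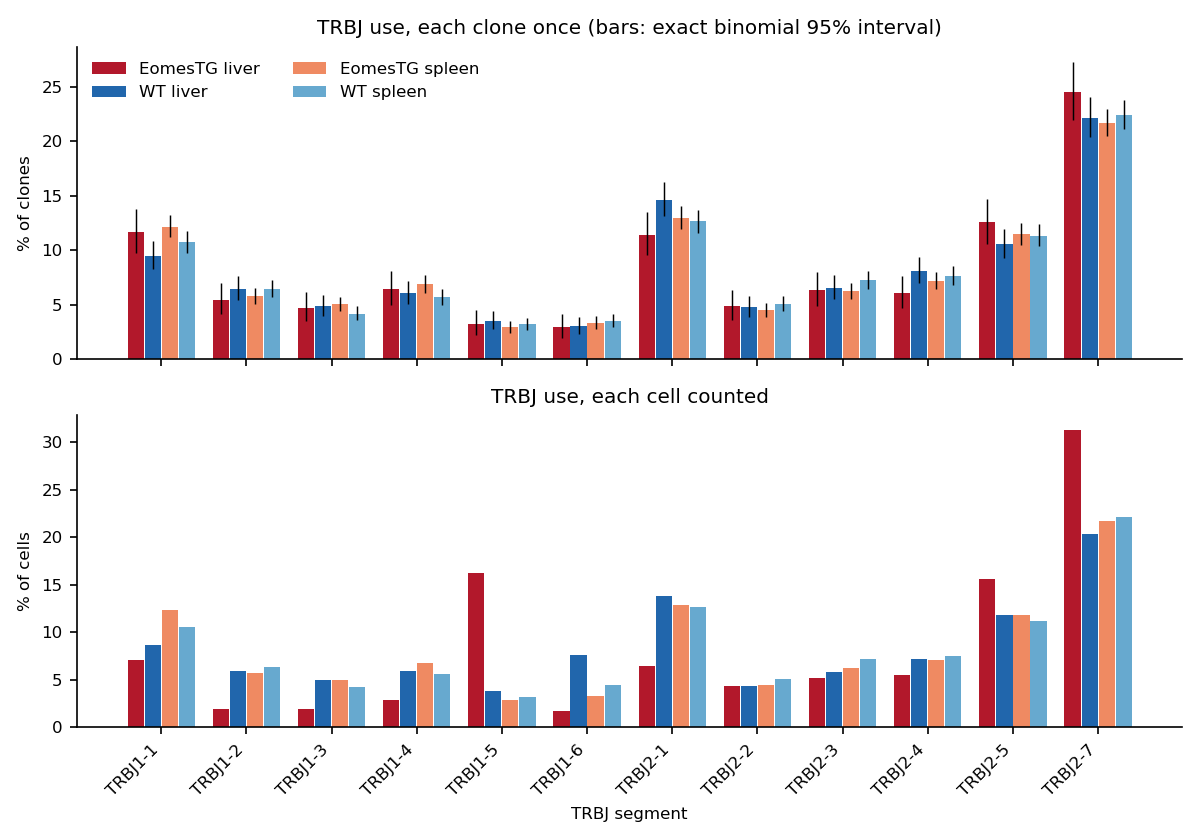
Use of the 12 TRBJ segments (x axis) as percent of clones with exact binomial 95% intervals (upper panel) and as percent of cells (lower panel) in EomesTG liver, WT liver, EomesTG spleen and WT spleen. By clones TRBJ2-7 is highest in all 4, at 21.7 to 24.5%; by cells TRBJ1-5 stands out at 16.2% in EomesTG liver.

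The J2 cluster was used by 65.7% of clones in EomesTG liver (62.7 to 68.6%), 66.7% in WT liver (64.6 to 68.7%), 64.0% in EomesTG spleen (62.5 to 65.4%) and 66.3% in WT spleen (64.7 to 67.7%). The intervals of all 4 libraries overlapped. The constant region written into the contigs followed the locus: TRBC1 was named in 98.9% of barcodes with a J1 segment in EomesTG liver, 99.2% in WT liver, 98.2% in EomesTG spleen and 98.6% in WT spleen. It was named in 0 of the 2668, 1791, 3424 and 3312 barcodes with a J2 segment in the same order, and TRBC2 was named in none of the 4 libraries. In the RNA libraries the Trbc1 share of all Trbc1 and Trbc2 UMIs was 36.6% in J1 cells against 18.3% in J2 cells of EomesTG liver, and 42.4% against 21.9% in WT liver. The 2 constant genes are near-identical, so reads can be split between them and this share is uncertain. The 14 Trbj genes listed in the RNA matrices had 0 UMIs, so J use could not be read there.

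TRBV use was spread over 22 labels and TRBJ use over 12, so the shares of their leading members are not on the same scale. The most used TRBV label had 30 times the clones of the least used in EomesTG liver and 34.7 times in WT liver. In EomesTG spleen it had 21.4 times and in WT spleen 38.7 times, in each library above the ratio for TRBJ. The 5 leading labels took 39.5% of clones in EomesTG liver, 40.5% in WT liver, 38.0% in EomesTG spleen and 39.0% in WT spleen, where the 5 leading TRBJ segments took between 64.7 and 66.5%. The label TRBV12-2+TRBV13-2 was the most frequent in EomesTG liver at 8.75%, in EomesTG spleen at 8.34% and in WT spleen at 8.84%, and TRBV12-2 was the most frequent in WT liver at 10.3%. TRBV16 had 7.98% in EomesTG liver, 7.396% in WT liver, 7.39% in EomesTG spleen and 7.24% in WT spleen. TRBV3 had 6.81% in EomesTG liver, 6.80% in WT liver, 7.56% in EomesTG spleen and 7.42% in WT spleen. The other labels with at least 5% of clones in some library were TRBV1, TRBV5, TRBV12-1, TRBV13-1, TRBV13-3, TRBV19 and TRBV29. The rarest were TRBV30, between 0.229% in WT spleen and 0.390% in EomesTG spleen, and TRBV23, between 0.292% in EomesTG liver and 0.483% in WT spleen.

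Between genotypes 2 of 22 TRBV labels were called in liver, which is 9.09%. TRBV10 was carried by 19 clones or 1.85% in EomesTG liver against 79 clones or 3.90% in WT liver, a ratio of 0.474 (0.271 to 0.791). TRBV31, whose gene lies downstream of Trbc2 in the opposite orientation and joins by inversion, was carried by 38 clones or 3.70% in EomesTG liver against 46 clones or 2.27% in WT liver, a ratio of 1.63 (1.03 to 2.56). The TRBV31 call did not hold by cells, of which it had 1.93% in EomesTG liver and 1.99% in WT liver, nor with TRB contigs of at least 3 UMIs, which gave a ratio of 1.58 with an interval that included 1.

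In spleen 1 of 22 labels was called between genotypes, which is 4.55%. TRBV26 was carried by 65 clones or 1.59% in EomesTG spleen against 100 clones or 2.54% in WT spleen, a ratio of 0.624 (0.449 to 0.861). TRBV31 pointed the same way as in liver without reaching the fold, at 3.39% in EomesTG spleen against 2.34% in WT spleen and a ratio of 1.45 (1.11 to 1.91). TRBV10 had 3.51% in EomesTG spleen and 4.37% in WT spleen, with a ratio of 0.804 (0.639 to 1.01). Below the fold, the interval also lay on one side of 1 for TRBV1 in liver, at 7.39% in EomesTG liver against 4.98% in WT liver (ratio 1.48, 1.09 to 2.02), and for TRBV14 in spleen, at 3.27% in EomesTG spleen against 4.70% in WT spleen (ratio 0.695, 0.552 to 0.873). In spleen it did so too for TRBV13-1, at 6.12% in EomesTG spleen against 7.42% in WT spleen (0.825, 0.694 to 0.980), and TRBV17, at 2.83% in EomesTG spleen against 3.68% in WT spleen (0.768, 0.596 to 0.987). TRBV13-3, at 7.12% in EomesTG spleen against 5.67% in WT spleen (1.26, 1.05 to 1.503), and TRBV19, at 6.66% in EomesTG spleen against 5.54% in WT spleen (1.202, 1.002 to 1.44), lay on the other side. No TRBV label was called between genotypes in both tissues.

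**Figure D2:**
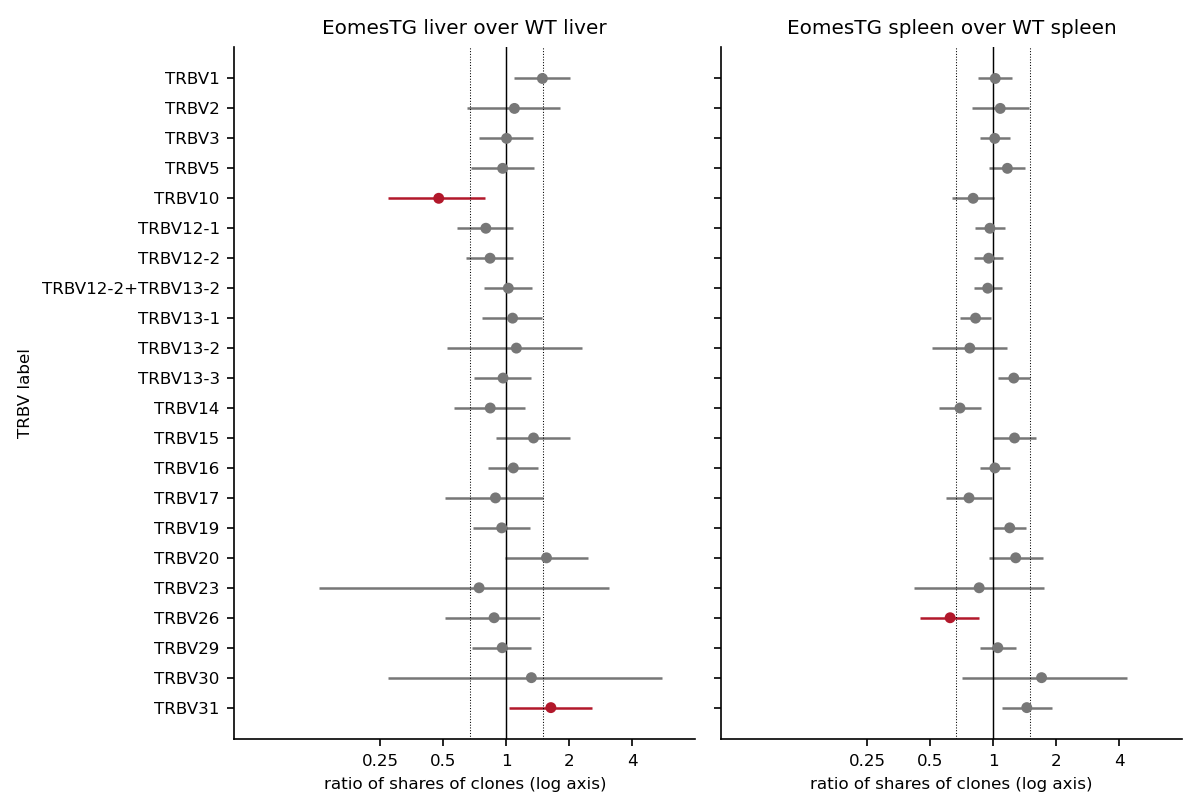
Ratio of the share of clones with each of 22 TRBV labels, EomesTG over WT in liver (left) and in spleen (right), on a log axis. Points are ratios, lines exact conditional binomial 95% intervals, dotted lines the fold of 1.5 and its inverse, and red marks called labels: TRBV10 (0.474) and TRBV31 (1.63) in liver and TRBV26 (0.624) in spleen.

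Liver over spleen, 1 of 22 labels was called in each genotype, again 4.55%. In EomesTG mice this was TRBV10, at 1.85% in liver against 3.51% in spleen (ratio 0.526, 0.308 to 0.852). In WT mice it was TRBV17, at 49 clones or 2.42% in liver against 145 clones or 3.68% in spleen (ratio 0.656, 0.464 to 0.912), and with the TRB alone as the clone its ratio was 0.699 and no longer called. The EomesTG liver library takes part in both TRBV10 comparisons. TRBV12-2 in WT mice had an interval above 1 below the fold, at 10.3% in liver against 7.70% in spleen (ratio 1.33, 1.11 to 1.59). TRBV13-1 in WT mice had an interval below 1, at 5.28% in liver against 7.42% in spleen (ratio 0.711, 0.564 to 0.890).

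The RNA libraries of the same barcodes read the V segments a further time. Among barcodes with a single leading Trbv gene in the RNA, this gene was compared with the contig label. For the label TRBV12-2+TRBV13-2, Trbv13-2 was counted as a match, so the match by name alone was lower. The match was 98.3% in EomesTG liver, 93.0% in WT liver, 94.9% in EomesTG spleen and 94.0% in WT spleen. For the label TRBV10 the leading gene had another name: it was Trbv4 in 24 of 25 barcodes of EomesTG liver, 116 of 130 of WT liver, 152 of 159 of EomesTG spleen and 183 of 198 of WT spleen. Without TRBV10 the match was 98.9% in EomesTG liver, 97.6% in WT liver and 97.9% in each spleen. Trbv10 itself, annotated as a pseudogene at 41091940-41092228 of chromosome 6, had 0 UMIs in these cells, and Trbv4 is annotated as a V gene at 41059394-41059886.

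The start of the CDR3 does not identify the V gene of these clones. TRBV10 clones began with the first 9 bases of the Trbv4 tail in 19 of 19 clones of EomesTG liver, 78 of 79 of WT liver, 141 of 144 of EomesTG spleen and 169 of 172 of WT spleen, but the tails of most other TRBV labels open with the same letters. They began with its first 12 bases in 15 of 19 clones of EomesTG liver, 69 of 79 of WT liver, 121 of 144 of EomesTG spleen and 141 of 172 of WT spleen, and the tails of TRBV2, TRBV3 and TRBV5 share these 12. The Trbv4 tail from the codon of the conserved cysteine and the last 27 bases of the annotated Trbv10 segment are printed to show that the annotated Trbv10 end does not hold the letters that open these CDR3s.
Trbv4 tail: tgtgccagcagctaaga
Trbv10 annotated end: tgtacttctgggccagcagtgaacaaa
The TRBV10 differences above are differences in a label whose RNA was mostly that of Trbv4. Likewise, TRBV12-2+TRBV13-2 barcodes had Trbv13-2 as leading gene in 119 of 121 of EomesTG liver, 206 of 212 of WT liver, 420 of 431 of EomesTG spleen and 413 of 423 of WT spleen. Adding this label to TRBV13-2 gave 10.0% of clones in EomesTG liver, 9.71% in WT liver, 9.46% in EomesTG spleen and 10.3% in WT spleen. Among the labels other than these 2, the match was lowest for TRBV5, at 87.8% in EomesTG liver, 86.4% in WT liver, 84.6% in EomesTG spleen and 77.9% in WT spleen.

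Nearly every combination of V and J occurred. Of 264 possible pairs 259 were seen in at least 1 library, 214 in EomesTG liver, 240 in WT liver, 254 in EomesTG spleen and 251 in WT spleen, following the order of their clone numbers. The most frequent pair was TRBV12-2+TRBV13-2 with TRBJ2-7 in WT liver (47 clones, 2.32%), EomesTG spleen (79 clones, 1.93%) and WT spleen (88 clones, 2.24%). In EomesTG liver TRBV16 TRBJ2-7 and TRBV5 TRBJ2-7 led with 23 clones or 2.24% each, and TRBV12-2+TRBV13-2 TRBJ2-7 had 19 clones or 1.85%.

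Few pairs were called between libraries, and since the intervals are not adjusted for the number of labels or pairs compared, some calls can come from counting error alone. In EomesTG over WT liver 4 of 114 pairs with at least 10 clones were called, which is 3.51%, and all 4 were higher and 0.0% lower. TRBV29 TRBJ2-5 had 14 clones in EomesTG liver and 7 in WT liver (ratio 3.95, 1.49 to 11.6), TRBV1 TRBJ1-1 had 15 and 9 (3.29, 1.35 to 8.52), and TRBV15 TRBJ2-7 had 17 and 15 (2.24, 1.05 to 4.81). The last of these pairs held 18.3% of the cells of EomesTG liver, 596 cells, against 0.623% or 15 cells in WT liver. In EomesTG over WT spleen 6 of 204 pairs were called, which is 2.94%, with 0.98% higher and 1.96% lower. TRBV19 TRBJ1-3 had 22 clones in EomesTG spleen and 6 in WT spleen (ratio 3.52, 1.38 to 10.6), and TRBV17 TRBJ2-3 had 2 in EomesTG spleen and 14 in WT spleen (0.137, 0.0151 to 0.597). TRBV17 TRBJ2-7, with 20 clones in EomesTG spleen and 36 in WT spleen (0.533, 0.292 to 0.946), and TRBV10 TRBJ2-7, with 32 in EomesTG spleen and 50 in WT spleen (0.614, 0.381 to 0.976), were lower as well. TRBV13-3 TRBJ1-1 was called higher in EomesTG mice in both tissues. It had 42 clones in EomesTG spleen against 21 in WT spleen (1.92, 1.11 to 3.41). In the livers it had 12 clones or 1.17% in EomesTG liver against 9 clones or 0.444% in WT liver (2.63, 1.02 to 7.07). The tissues of a genotype share their mice, so the calls are not independent.

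Between tissues, in EomesTG mice 4 of 174 pairs were called in liver over spleen, which is 2.3%, with 1.15% in each direction. TRBV3 TRBJ1-2 had 0 clones in liver, which allows a share of up to 0.292%, against 24 clones or 0.585% in spleen, and TRBV19 TRBJ2-5 had 1 clone in liver and 26 in spleen (ratio 0.153, 0.00374 to 0.934). TRBV2 TRBJ2-1 had 9 clones in liver and 10 in spleen (ratio 3.59, 1.29 to 9.83), and TRBV29 TRBJ2-5, which was also called in EomesTG over WT liver with the same EomesTG liver clones, had 14 in liver and 24 in spleen (2.33, 1.11 to 4.68). In WT mice 7 of 183 pairs were called, which is 3.83%, with 1.64% higher and 2.19% lower. TRBV12-2 TRBJ1-2 had 24 clones in liver and 16 in spleen (2.91, 1.48 to 5.86), TRBV12-2 TRBJ2-4 had 26 in liver and 24 in spleen (2.10, 1.16 to 3.82), and TRBV13-1 TRBJ2-5 had 6 in liver and 35 in spleen (0.333, 0.114 to 0.799). TRBV19 TRBJ2-3, with 14 in liver and 11 in spleen (2.47, 1.04 to 6.01), was higher too. TRBV1 TRBJ1-5, with 1 in liver and 15 in spleen (0.129, 0.00307 to 0.841), and TRBV3 TRBJ2-5, with 8 in liver and 37 in spleen (0.420, 0.169 to 0.915), were lower.

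Within a library, the clones of each pair were set against the number expected from the product of its V and J shares, with an exact Poisson interval, for pairs with at least 5 expected clones. A pair was called at the same fold of 1.5. In EomesTG liver 4 of 61 pairs were called (6.56%), in WT liver 9 of 147 (6.12%), in EomesTG spleen 11 of 208 (5.29%) and in WT spleen 15 of 212 (7.08%). Pairs above expectation made up 3.28% in EomesTG liver, 5.44% in WT liver, 1.44% in EomesTG spleen and 3.3% in WT spleen, and pairs below it 3.28, 0.68, 3.85 and 3.77% in that order. The median of observed over expected was 0.952 in EomesTG liver, 0.977 in WT liver, 0.995 in EomesTG spleen and 1.001 in WT spleen.

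TRBV1 TRBJ1-6 was the single pair called the same way in both spleens, out of 202 pairs tested in both, of which 11 were called in EomesTG spleen and 14 in WT spleen. It had 22 clones against 7.83 expected in EomesTG spleen (2.81-fold, 1.76 to 4.25) and 16 against 7.75 expected in WT spleen (2.06-fold, 1.18 to 3.35). Over the 202 pairs the log2 of observed over expected correlated with a Pearson r of 0.392 between the spleens, a description over pairs that share their V and J segments. Among pairs rarer than expected were TRBV20 TRBJ2-5, with 2 clones against 12.7 expected in EomesTG spleen, and TRBV12-1 TRBJ1-6, with 2 against 10.5 expected in WT spleen. TRBV17 TRBJ1-6 was not seen in WT spleen, a share of up to 0.0762% at the depth of that library, where 5.09 clones were expected. TRBV5 TRBJ2-4 had 1 clone against 8.65 expected in WT liver and 6 against 14.2 in WT spleen, and had 16 against 16.3 in EomesTG spleen. Also above expectation were TRBV10 TRBJ2-5 in EomesTG spleen, with 27 against 16.5, and in WT spleen TRBV12-2+TRBV13-2 TRBJ2-5, with 62 against 39.4, TRBV31 TRBJ2-1, with 22 against 11.6, and TRBV1 TRBJ1-5, with 15 against 7.08. Also below it were TRBV3 TRBJ1-6, with 2 against 10.3, and TRBV16 TRBJ1-6, with 3 against 10.1, in EomesTG spleen, and TRBV15 TRBJ2-5, with 5 against 14.2, in WT spleen.

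In EomesTG liver the called pairs were TRBV5 TRBJ2-7, with 23 clones against 12.7 expected (1.80-fold, 1.14 to 2.71), TRBV29 TRBJ2-5, with 14 against 7.404 (1.89-fold, 1.03 to 3.17), TRBV19 TRBJ2-5, with 1 against 7.91 (0.126-fold, 0.00320 to 0.705), and TRBV29 TRBJ2-7, with 6 against 14.5 (0.415-fold, 0.152 to 0.903). TRBV29 TRBJ2-5, also called between the livers above, had 7 clones against 12.9 expected in WT liver and was not called there. In WT liver TRBV17 TRBJ2-5 had 12 against 5.17 expected (2.32-fold, 1.199 to 4.05), TRBV29 TRBJ1-1 had 22 against 11.6 (1.90-fold, 1.19 to 2.88) and TRBV14 TRBJ2-1 had 24 against 13.4 (1.79-fold, 1.15 to 2.66).

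**Figure D3:**
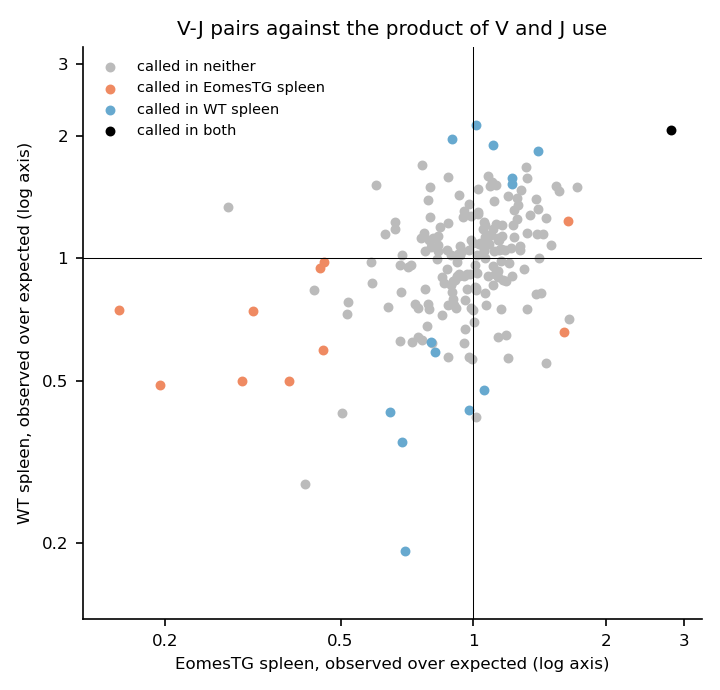
Clones observed over clones expected from the product of V and J use for the 202 V-J pairs tested in both spleens, EomesTG spleen on the x axis and WT spleen on the y axis, both log axes. Each point is a pair; the black point far to the upper right is TRBV1 TRBJ1-6, at 2.81 and 2.06.

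CDR3 length was alike in the 4 libraries when clones were counted. Its mean was 13.8 residues in EomesTG liver, and 13.9 in WT liver, EomesTG spleen and WT spleen, with SDs over clones between 1.40 and 1.45. The mode was 14 residues, which 31.1% of clones had in EomesTG liver, 31.6% in WT liver, 31.9% in EomesTG spleen and 32.3% in WT spleen. A long CDR3, of 16 residues or more, was carried by 10.0% of clones in EomesTG liver (8.25 to 12.02%), 10.8% in WT liver (9.53 to 12.3%), 11.3% in EomesTG spleen (10.4 to 12.4%) and 11.7% in WT spleen (10.8 to 12.8%). A short CDR3, of 12 residues or fewer, was carried by 17.3% in EomesTG liver, 15.5% in WT liver, 15.9% in EomesTG spleen and 15.1% in WT spleen. The intervals of the 4 libraries overlapped for the long as for the short share.

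By cells 1 length stood apart in 1 library. A CDR3 of 13 residues was carried by 54.6% of cells in EomesTG liver against 22.4% in WT liver, while 20.5% of clones in EomesTG liver and 19.5% in WT liver had it. In clones of 10 or more cells it was carried by 75.1% of cells in EomesTG liver. The share in the spleens was 19.1% of cells in EomesTG spleen and 20.1% in WT spleen. The 5 largest clones of EomesTG liver, with 492, 448, 233, 104 and 75 cells, all had 13 residues. The clones of 233 and 75 cells carried the same TRB joint with another alpha chain, so the 5 are not separate TRBs. The next clones, TRBV12-2 TRBJ2-4 and TRBV12-2 TRBJ2-7 with 60 cells each, had 14 residues.

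**Figure D4:**
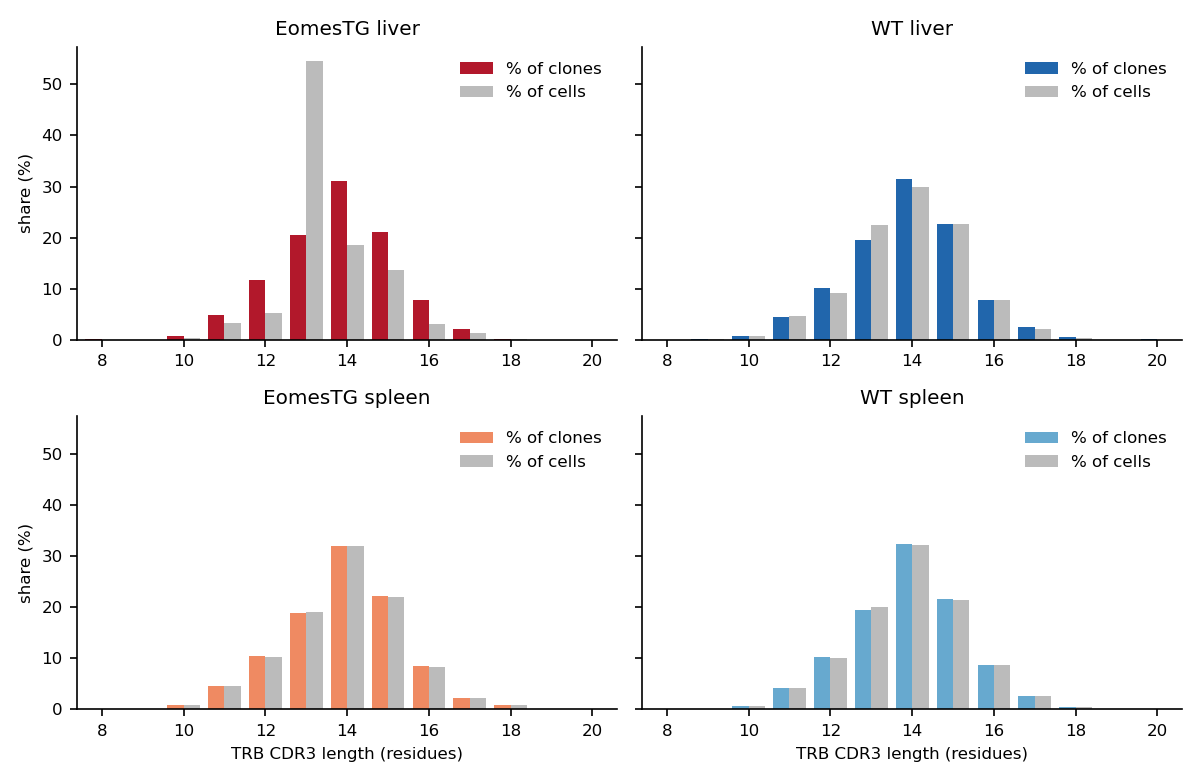
Distribution of TRB CDR3 length in residues (x axis) as percent of clones (coloured) and of cells (grey) in EomesTG liver, WT liver, EomesTG spleen and WT spleen. The coloured bars peak at 14 residues in all 4; the grey bar at 13 residues reaches 54.6% in EomesTG liver and 22.4% in WT liver.

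Length differed far more between J segments than between libraries. TRBJ2-7, with 19 germline bases up to the last CDR3 codon the shortest, had a mean of 13.2 residues in EomesTG liver, 13.2 in WT liver, 13.2 in EomesTG spleen and 13.3 in WT spleen. TRBJ1-1, with 20 bases, had 13.4 in EomesTG liver, 13.3 in WT liver, 13.3 in EomesTG spleen and 13.3 in WT spleen. TRBJ2-3, with 21 bases, had 14.9, 14.6, 14.8 and 14.7 residues in the same order, and TRBJ2-2, with 23 bases, 14.5, 14.8, 14.7 and 14.8. The gap between these segment pairs, of at least 1 residue, recurred in each library.

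The share of long CDR3s followed. It was 4.76% of TRBJ2-7 clones in EomesTG liver, 2.45% in WT liver, 3.49% in EomesTG spleen and 4.42% in WT spleen, and 33.8% of TRBJ2-3 clones in EomesTG liver, 22.6% in WT liver, 25.1% in EomesTG spleen and 26.4% in WT spleen. Germline J length and mean CDR3 length did not run in parallel throughout: TRBJ1-6, with 25 bases the longest, had means of 14.1 residues in EomesTG liver, 14.2 in WT liver, 14.3 in EomesTG spleen and 14.5 in WT spleen, below those of TRBJ2-3. Over the 12 segments Pearson's r between the germline bases and the mean length was 0.457 in EomesTG liver, 0.657 in WT liver, 0.646 in EomesTG spleen and 0.737 in WT spleen, a description over points that share their libraries.

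The sequence of the joints shows which part of the CDR3 carried these differences. From J, clones kept a mean of 15.2 bases with TRBJ2-7, 19.4 with TRBJ2-3 and 20.5 with TRBJ1-6 in EomesTG liver, and 15.1, 19.4 and 21.4 in that order in WT liver. Between V and J they held 10.7 bases with TRBJ2-7, 11.2 with TRBJ2-3 and 7.93 with TRBJ1-6 in EomesTG liver, and 10.7, 10.6 and 7.57 in WT liver. TRBJ1-6 kept the most J bases of the 12 segments in WT liver, EomesTG spleen and WT spleen, while in EomesTG liver TRBJ2-2 kept 20.58. It had the fewest bases between V and J in EomesTG liver, WT liver and EomesTG spleen, and in WT spleen it had 8.33 where TRBJ1-3 had 8.32. Every TRBJ1 segment had a mean of fewer than 10 bases between V and J in all 4 libraries, and TRBJ2-7 had between 10.7 and 10.9.

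**Figure D5:**
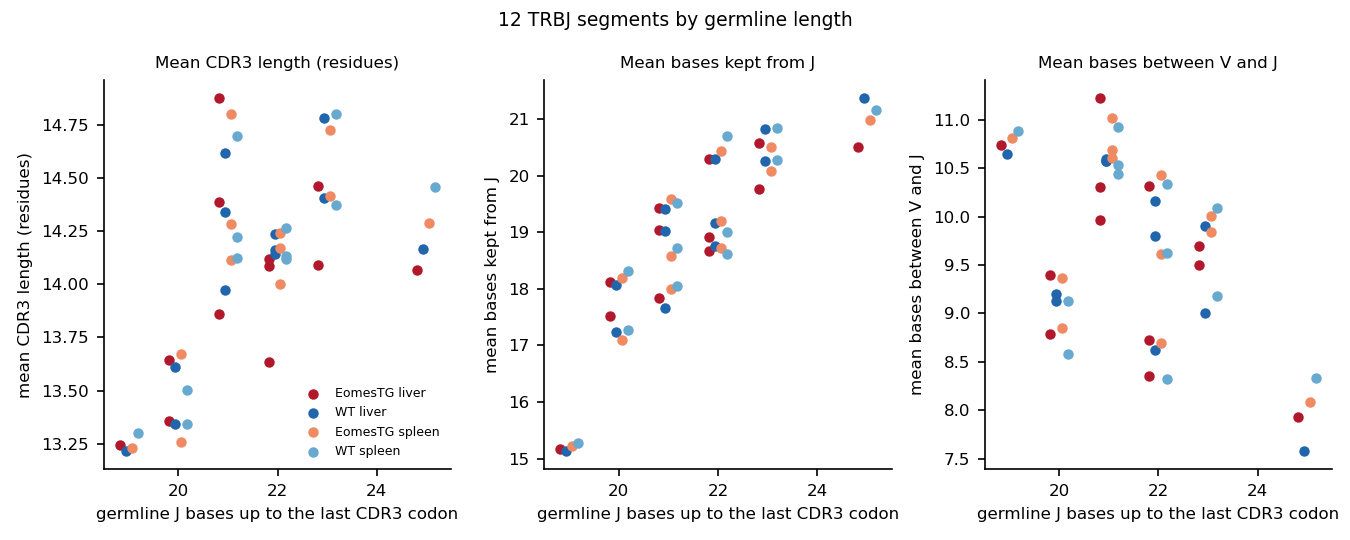
Mean CDR3 length, mean bases kept from J and mean bases between V and J (3 panels, y axes) of the 12 TRBJ segments against their germline bases up to the last CDR3 codon (x axis, libraries set slightly apart), for EomesTG liver, WT liver, EomesTG spleen and WT spleen. Bases kept run between 15.1 and 21.4, and the segment with 25 germline bases, TRBJ1-6, has 7.57 to 8.33 bases between V and J.

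V segments differed in the length they gave as well. In EomesTG spleen the V means covered a wider range than the J means, between 12.7 residues for TRBV30, over 16 clones, and 14.8 for TRBV2. The J means there ran between 13.2 for TRBJ2-7 and 14.8 for TRBJ2-3. TRBV20, whose CDR3 part has 14 germline bases, had means of 12.9 residues in EomesTG liver, 13 in WT liver, 13.1 in EomesTG spleen and 12.9 in WT spleen. TRBV2, with 17 bases, had 14.7 in EomesTG liver, 14.3 in WT liver, 14.8 in EomesTG spleen and 14.5 in WT spleen. TRBV3, with the longest tail at 21 bases, kept a mean of 13.2 of them in EomesTG liver, 13.6 in WT liver, 13.7 in EomesTG spleen and 13.7 in WT spleen, and its mean CDR3 length was 13.9 in EomesTG liver, 14.2 in WT liver, 14.1 in EomesTG spleen and 14.2 in WT spleen.

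Over all clones, 13.6 bases were kept from V in EomesTG liver, 13.7 in WT liver, 13.6 in EomesTG spleen and 13.6 in WT spleen, and 17.9, 18.1, 18.04 and 18.1 bases from J in that order. Between them lay 9.93 bases in EomesTG liver, 9.97 in WT liver, 10.1 in EomesTG spleen and 10.0 in WT spleen, with SDs between 3.79 and 3.87. Joints with at most 3 such bases made up 5.93% of clones in EomesTG liver (4.57 to 7.56%), 4.83% in WT liver (3.94 to 5.86%), 4% in EomesTG spleen (3.42 to 4.65%) and 4.24% in WT spleen (3.64 to 4.92%). The difference in mean between any 2 libraries was far below the SD within each.

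The D segment between them was read where the longest shared stretch was at least 6 bases and was with D1 or D2 alone. Among J1 clones D1 was read in 48.7% in EomesTG liver, 48.4% in WT liver, 46.4% in EomesTG spleen and 47.1% in WT spleen. D2, which lies downstream of the J1 cluster, was read in 4.25, 5.92, 4.54 and 3.69% of J1 clones in the same order. Among J2 clones D2 was read in 44.9% in EomesTG liver, 46.7% in WT liver, 44.8% in EomesTG spleen and 48.0% in WT spleen, and D1 in 24.0, 22.8, 23.8 and 22.9% in the same order. D use thus followed the J cluster and was alike in the 4 libraries. The 2 D segments share most of their letters, and the rest of the clones had no stretch that met the rule.

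Expanded clones were compared with single-cell clones within each library. None of 12 TRBJ segments was called in any library, at 0.0% of segments, and none of the 20 to 22 TRBV labels tested in EomesTG liver, WT liver and EomesTG spleen, also at 0.0%. In WT spleen 1 of 21 labels was called, which is 4.76%: TRBV3 was carried by 9 of 53 expanded clones or 17.0% against 283 of 3882 single-cell clones or 7.29%, a ratio of 2.33 (1.05 to 4.49). TRBV3 had 6.38% of expanded against 6.88% of single-cell clones in EomesTG liver, 11.8% against 6.59% in WT liver and 11.1% against 7.51% in EomesTG spleen, and was called in none of these. TRBJ2-7 was carried by 27.7% of expanded against 24.0% of single-cell clones in EomesTG liver, a ratio of 1.15 (0.797 to 1.63).

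The J2 cluster was used by 70.9% of expanded clones in EomesTG liver (62.7 to 78.3%) against 64.8% of its single-cell clones, and by 65.9% in WT liver (54.8 to 75.8%) against 66.7%. In EomesTG spleen it was used by 75.9% of expanded clones (62.4 to 86.5%) against 63.8%, and in WT spleen by 69.8% (55.7 to 81.7%) against 66.2%. A long CDR3 was carried by 8.51% of expanded clones in EomesTG liver (4.48 to 14.4%) against 10.3% of single-cell clones, and by 15.3% in WT liver (8.40 to 24.7%) against 10.7%. In EomesTG spleen the long share was 5.56% of expanded clones (1.16 to 15.4%) against 11.4%, and in WT spleen 9.43% (3.13 to 20.7%) against 11.8%. The single-cell value lay inside the interval of the expanded clones in each of these comparisons, and with 53 to 141 expanded clones smaller differences could not be detected.

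The number of bases between V and J was 9.23 in expanded against 10.0 in single-cell clones of EomesTG liver, 10.1 against 9.97 in WT liver, 9.98 against 10.1 in EomesTG spleen and 9.87 against 10.0 in WT spleen. Joints with at most 3 bases made up 9.22% of expanded clones in EomesTG liver (5.001 to 15.3%) against 5.41% of single-cell clones, and 1.18% in WT liver (0.0298 to 6.38%) against 4.99%. In these shares the expanded clones of EomesTG liver and WT liver lay on opposite sides of their single-cell clones. The single-cell shares lay inside the intervals of the expanded ones. No interval was computed for the mean number of bases. Its SD in EomesTG liver was 4.11 over 141 expanded and 3.81 over 887 single-cell clones.

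Cells of expanded clones made up 72.8% of the cells with both chains in EomesTG liver, 19.3% in WT liver, 3.34% in EomesTG spleen and 4.20% in WT spleen. The TRBV3 TRBJ1-5 clone of EomesTG liver held 492 cells or 15.1% (13.9 to 16.4%) and paired with TRAV14D-1 TRAJ23. The TRBV15 TRBJ2-7 clone held 448 cells or 13.7% and paired with TRAV19 TRAJ58, and the further TRBV15 TRBJ2-7 clone held 104 cells or 3.19% and paired with TRAV9N-4 TRAJ22. None of these 3 was seen in EomesTG spleen, where 0 cells allow a share of up to 0.0717%. In WT liver the TRBV29 TRBJ1-6 clone held 117 cells or 4.86%, with 42 cells or 1.04% in WT spleen, and paired with TRAV10 TRAJ56. The TRBV10 TRBJ2-5 clone of WT liver, with a CDR3 of 15 residues, held 46 cells or 1.91% and was not seen in WT spleen, where 0 cells allow a share of up to 0.0740%. The next 3 clones of WT liver were TRBV3 TRBJ1-4 with 14 cells, TRBV13-1 TRBJ2-1 with 13 and TRBV5 TRBJ1-3 with 12.

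The spleens had far smaller clones. The largest of EomesTG spleen, TRBV12-2+TRBV13-2 TRBJ2-5, held 10 cells, with 7 cells in EomesTG liver. It was followed by TRBV12-1 TRBJ2-5 with 8 cells, TRBV16 TRBJ1-1 with 7, a further TRBV12-1 TRBJ2-5 with 6 and TRBV3 TRBJ1-1 with 5. Behind the TRBV29 TRBJ1-6 clone of WT spleen came TRBV13-1 TRBJ2-1 with 6 cells, TRBV19 TRBJ2-2 with 5, and TRBV3 TRBJ1-4 and TRBV3 TRBJ1-1 with 4 each.

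The TRBV12-1 TRBJ2-5 joint printed above counted as 2 clones, because its barcodes carried 2 alpha chains. It was found in 325 barcodes of EomesTG liver, of which 308 had a productive TRA: 279 held TRAV13-1 TRAJ31, 176 held TRAV9-4 TRAJ35, 147 held both and 0 held neither. In EomesTG spleen 15 barcodes had the joint and 14 of them a TRA, with 12, 9, 7 and 0 barcodes in the same order. By the top TRA alone it split into clones of 233 and 75 cells in EomesTG liver. With the TRB alone as the clone, the number of TRBJ segments called stayed at 0 in all 4 comparisons.

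Paired clones were shared between the tissues of a genotype and not between genotypes. Liver and spleen shared 28 clones in EomesTG mice, which are 2.72% of the liver clones and 0.683% of the spleen clones, and 63 clones in WT mice, which are 3.11% of the liver clones and 1.60% of the spleen clones. No paired clone was found in both genotypes. The TRB alone, as V and J label and CDR3 residues, was found in both genotypes for 99 receptors, which are 1.98% of those of EomesTG mice and 1.71% of those of WT mice.

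These 99 receptors were short. Their CDR3 had a mean of 13.1 residues (SD 1.29), where the TRBs of 1 genotype alone had 13.9 (SD 1.44) in EomesTG mice and 13.9 (SD 1.42) in WT mice. Only 1.01% of them (0.0256 to 5.50%) had 16 residues or more, against 11.4% in EomesTG mice and 11.8% in WT mice. Between V and J they held 7.08 bases as read in EomesTG mice and 7.06 as read in WT mice, against 10.2 and 10.1 in the TRBs of EomesTG and WT mice alone. TRBJ2-7 was used by 30.3% of them, against 21.97% of the TRBs found in EomesTG mice alone and 22.1% of those found in WT mice alone. TRBJ1-1 was used by 16.2%, against 11.8 and 10.2%, and TRBJ2-1 by 9.09%, against 12.8 and 13.4%. With 99 receptors these J shares are imprecise, and no intervals were computed for them. The J2 cluster as a whole was used by 63.6%, against 64.2% in EomesTG mice and 66.5% in WT mice.

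In the RNA of the same barcodes, expanded and single-cell clones differed in genes of T cell state. Ccl5, a chemokine of effector and memory cells, had 37900 CPM in expanded against 7889 CPM in single-cell clones of EomesTG liver, and 22037 against 6110 CPM in WT liver. Ccr7, a chemokine receptor of naive cells, had 2.90 CPM in expanded against 325 CPM in single-cell clones of EomesTG liver, and 20.8 against 352 CPM in WT liver. Lef1, a transcription factor of naive cells, had 9.36 against 263 CPM in EomesTG liver and 71.8 against 279 CPM in WT liver.

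Pdcd1, which encodes PD-1, had 683 CPM in expanded against 61.2 CPM in single-cell clones of EomesTG liver, and 59.6 against 15.9 CPM in WT liver. Cxcr6, a chemokine receptor of liver-resident cells, had 496 against 88.9 CPM in EomesTG liver and 253 against 114 CPM in WT liver. Eomes had 208 CPM in expanded and 128 CPM in single-cell clones of EomesTG liver, and 98.7 and 85.2 CPM in WT liver. The 29 clones of 10 or more cells held 61.6% of the cells of EomesTG liver, against 72.8% in all its expanded clones, so its values for expanded clones are mostly theirs. Fewer cells of a state and less RNA per cell cannot be told apart in these sums.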

How the data were processed

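CD8 T cells of 4 groups were profiled by 10x Genomics 5' v1 receptor and RNA libraries. The authors deposited raw UMI counts per gene and barcode and, per contig, counts of UMIs and reads with V, J, C and CDR3 labels. Cell Ranger and mm10 are named per the submitters' processing notes, and software version 3.1.0 per the file headers; the sources used here do not name the receptor reference. Deposited contigs were all marked as high-confidence contigs of cells, and no D gene was named.

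The productive TRB and TRA contigs with the most UMIs were kept per barcode. No doublet caller was run; barcodes with 2 productive TRB chains (4.53% in EomesTG liver, 7.50% in WT liver, 6.65% in EomesTG spleen, 6.74% in WT spleen) stayed in, and an alternative drops them. V and J germline ends came from GENCODE M21 transcripts; the V end is the longest start, and the J end the longest end, that a CDR3 shares with its germline segment, and D matches needed 6 bases. Shares have exact binomial intervals, ratios exact conditional binomial ones and expected counts exact Poisson ones, at 95%. CPM are sums of UMIs over barcodes per 1000000 of their total.

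Comparisons were EomesTG over WT per tissue and liver over spleen per genotype. The text names all TRBJ segments, TRBV labels with 5% of clones or called, the 3 highest and lowest pairs per library and comparison by the interval bound nearest to equality, the 5 largest clones per library and 7 RNA genes, of which 1 is not reported here. These members and lists were chosen with earlier results of these data known. Intervals were not adjusted for the number of segments or pairs compared. Alternatives were each cell counted, TRB alone as the clone, other UMI, size, length and count minimums, and clones or barcodes left out. Intervals were computed with scipy 1.17.1, tables with pandas 2.3.3 and numpy 2.4.6 and figures with matplotlib 3.10.9, in Python 3.11.15.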

Additional observations from a re-analysis of the deposited data

Results flagged for a closer look

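The contig tables also hold TRB contigs that are not productive, which no comparison above used. Full-length ones with a V segment numbered 620 in EomesTG liver, 469 in WT liver, 633 in EomesTG spleen and 732 in WT spleen, with medians of 3, 3, 2 and 2 UMIs in that order. Ones without a V segment were more frequent, at 2143 in EomesTG liver, 1450 in WT liver, 2650 in EomesTG spleen and 2449 in WT spleen, with medians of 5, 5, 4 and 4 UMIs. These signals lie outside the productive contigs, and no control library was analysed here against which to set them.

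Counted once per clone and J segment, contigs without V used the J2 cluster in 75.9% in EomesTG liver (72.4 to 79.1%), 77.9% in WT liver (75.2 to 80.4%), 77.2% in EomesTG spleen (75.3 to 79.0%) and 78.9% in WT spleen (77.0 to 80.7%). Full-length contigs with V used it in 62.3% in EomesTG liver (54.2 to 70.0%), 61.6% in WT liver (56.0 to 66.9%), 66.3% in EomesTG spleen (61.7 to 70.6%) and 60.7% in WT spleen (56.5 to 64.7%). The share of contigs without V lay above that of productive clones in each library, and their most used segment was TRBJ2-1, at 27.6% in EomesTG liver, 28.3% in WT liver, 30.6% in EomesTG spleen and 30.1% in WT spleen, ahead of TRBJ2-7, at 23.5, 26.6, 25.6 and 26.5% in that order. Their source was not tested.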

How the results depend on the processing

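Of 340 values under alternatives, 305 were rated the same as in the main setting. A share was rated so when it stayed inside its main interval, and a ratio when it kept its direction and its call. A number of calls was rated so when it lay within 1.5 times the main number, whichever segments or pairs were called. With barcodes that passed an RNA filter all 37 values were rated the same. This filter kept 3866 of 3884 TRB barcodes in EomesTG liver and 2820 of 2852 in WT liver. In EomesTG spleen it kept 5239 of 5307 and in WT spleen 4953 of 5061, so it could hardly move the values. With clones of both organs, of both genotypes or the 10 largest left out, all 37 values each were rated the same too. No paired clone was found in both genotypes, so leaving out paired clones of both genotypes removes none and tests nothing. Its 37 values are among the 305. The 10 largest clones are few beside the 1028 clones of EomesTG liver or the 4100 of EomesTG spleen. Shares over all clones could therefore hardly move without them. Clones of both organs numbered 28 in EomesTG mice and 63 in WT mice, so leaving these out could hardly move such shares either. Merging TRBV12-2+TRBV13-2 with TRBV13-2, chosen after seeing the data, kept 12 of 12. Counting each cell changed most: TRBJ segments called were 7 in EomesTG over WT liver, 1 in WT liver over WT spleen and 7 in EomesTG liver over EomesTG spleen, TRBV labels 14, 2 and 17, and V-J pairs 65, 12 and 88 in that order and 10 in EomesTG over WT spleen. By cells, pairs past the product were 83 in EomesTG liver and 32 in WT liver, the TRBV31 ratio in EomesTG over WT liver turned to 0.969, the J2 share was 63.2% in WT liver, 48.5% in its expanded clones and 53.5% in those of WT spleen, and the long share of EomesTG liver was 4.39%, and 2.19% in its expanded clones. By construction, a clone then weighs as much as it has cells. With the TRB alone as the clone, 0 TRBV labels were called in WT liver over WT spleen and 9 pairs in EomesTG over WT liver. Without barcodes of 2 TRBs, 2 TRBV labels were called in EomesTG over WT spleen, and with at least 3 UMIs 1 in EomesTG over WT liver. With no minimum of clones 7 pairs were called in EomesTG over WT liver, and with no minimum expected count 12 in EomesTG liver, since more pairs were tested. With expanded set at 3 or more cells, the long share was 0 of 11 clones in EomesTG spleen and 0 of 18 in WT spleen, which allow up to 27.3% and 16.7%; at 5 or more it was 0 of 5 in EomesTG spleen and 0 of 3 in WT spleen, which allow up to 60% and 100%, and the J2 share of EomesTG spleen was 60%. From 15 residues on, the long share was 31.0% in EomesTG liver, 33.5% in WT liver, 33.4% in EomesTG spleen and 33.3% in WT spleen, by construction. For the other shifts the cause was not tested. No paired analysis was possible because each group is 1 library. The 141, 85, 54 and 53 expanded clones of EomesTG liver, WT liver, EomesTG spleen and WT spleen, and the 3 mice of each pool, limit the precision.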
